A study of Mus musculus with 24 samples.

Results

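The clustered replication-dependent histone genes are the genes for the core histones H2A, H2B, H3 and H4 and the linker histone H1 that lie side by side in large genomic clusters. Members were taken by symbol and biotype: protein-coding entries named in the Hist1 to Hist4 style or, in newer naming, H1f1 to H1f6, H2ac, H2bc, H3c or H4c, with each Ensembl ID used once. The rule gave 64 genes of the 55487 genes in the table. Of these, 54 lie on chromosome 13 and 10 on chromosome 3 of GRCm38, in the GENCODE M21 annotation. A total of 7 members had fewer than 10 counts in every library and were set aside, 57 had at least 10 counts somewhere, and 55 passed the filter on low counts and were tested. The tested members were 5 H1, 13 H2A, 15 H2B, 10 H3 and 12 H4 genes.

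Expression was measured by bulk RNA-seq of mouse progenitor cells in 24 libraries, 4 per group, which the series text describes as biological replicates. The newborn groups (day of birth, P0) are liver cells, either wild type (P0 WT) or carrying MLL-ENL, a human leukaemia fusion gene run by a Tet-off system and induced at E10.5, an embryonic age in days (P0 ME). The 4 groups at postnatal day 28 (P28) are marrow cells: wild type (P28 WT), MLL-ENL induced at E10.5 (E10.5-induced ME), MLL-ENL induced at P0 (P0-induced ME), and a group labelled ME RLT Vav Txp, also E10.5-induced, whose name the labels do not expand. The labels call the sorted cells LSK, while the series text gives lineage-negative KIT-positive progenitors. The promoter that drives the Tet-off transactivator is not given in the sources used here. P0 cells were from liver and P28 cells from bone marrow, so age and tissue cannot be told apart.

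Histone proteins package DNA into nucleosomes, and their bulk supply is made while DNA is copied. The clustered genes are mostly intronless, and their mRNAs are the known exception among animal mRNAs in ending at a conserved stem-loop instead of a poly(A) tail. The stem-loop is bound by SLBP, the clusters are switched on by NPAT at the entry into S phase, and the mRNAs are destroyed when DNA synthesis stops. Some clustered genes can also give longer polyadenylated transcripts, which are known from differentiating cells. Whether the library chemistry primed from poly(A) tails is not given in the sources used here, so how far tail-less mRNA was captured is not known.

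The stem-loop was searched in the annotated transcripts, on the transcript strand, as GGNNNTTNNNANNNCC with paired stem letters. It was found in 43 of the 64 members (67.2%) and in 101 of 21837 other protein-coding genes (0.463%). The sequences below are of members described later, 1 or more per family, with the 2 arms of the stem in capitals and the loop and flanks in lower case, written 5′ to 3′ as DNA.
H1f2: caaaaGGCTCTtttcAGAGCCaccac
H1f4: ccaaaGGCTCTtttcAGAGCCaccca
H2ac6: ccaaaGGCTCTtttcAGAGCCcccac
H2bc8: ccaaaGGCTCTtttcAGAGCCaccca
H3c4: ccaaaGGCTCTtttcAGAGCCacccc
H4c4: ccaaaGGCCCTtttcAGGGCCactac
H4c9: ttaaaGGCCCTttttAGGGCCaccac
The H1, H2A, H2B and H3 examples shared the stem arm GGCTCT, and the H4 examples carried GGCCCT. All but H2bc6 could be placed on the genome as 1 stretch, and over these 42 the stem arm was GGCTCT in 31, all of them H1, H2A, H2B or H3 genes, GGCCCT in 9 H4 genes and GGTCCT in 2 H4 genes. The H1f2 copy lies at chr13:23739507-23739532 (plus strand), the H4c4 copy at chr13:23581945-23581970 (plus strand) and the H2ac6 copy at chr13:23683472-23683497 (minus strand), each in the part of the annotated transcript after the stop codon.

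Promoter sequences were taken from RefSeq on GRCm38.p6 and matched 59 members by Entrez gene ID. The 250 bases before the annotated start are printed for 3 H1 genes and 1 H2B gene whose levels are described in the comparisons, with matches to 4 motifs in capitals. The motifs, searched on both strands, were the octamer ATTTGCAT, the H1 box AAACACA, the CCAAT box and the TATA box with the letters TATAAA, and none of them contains another.
H1f2: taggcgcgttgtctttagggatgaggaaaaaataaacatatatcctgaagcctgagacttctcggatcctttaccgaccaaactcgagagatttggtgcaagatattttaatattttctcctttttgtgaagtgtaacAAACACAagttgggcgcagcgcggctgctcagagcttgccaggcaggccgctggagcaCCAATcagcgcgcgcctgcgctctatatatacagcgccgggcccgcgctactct
H1f4: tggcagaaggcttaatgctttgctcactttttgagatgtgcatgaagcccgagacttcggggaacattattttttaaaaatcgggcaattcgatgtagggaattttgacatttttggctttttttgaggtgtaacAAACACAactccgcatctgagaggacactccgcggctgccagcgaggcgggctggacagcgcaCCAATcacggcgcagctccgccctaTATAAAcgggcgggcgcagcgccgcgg
H1f5: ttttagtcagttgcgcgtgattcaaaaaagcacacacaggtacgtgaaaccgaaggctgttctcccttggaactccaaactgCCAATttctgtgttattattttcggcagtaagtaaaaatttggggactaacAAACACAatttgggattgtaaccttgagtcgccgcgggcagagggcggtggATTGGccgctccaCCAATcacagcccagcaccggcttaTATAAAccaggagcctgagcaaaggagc
H2bc8: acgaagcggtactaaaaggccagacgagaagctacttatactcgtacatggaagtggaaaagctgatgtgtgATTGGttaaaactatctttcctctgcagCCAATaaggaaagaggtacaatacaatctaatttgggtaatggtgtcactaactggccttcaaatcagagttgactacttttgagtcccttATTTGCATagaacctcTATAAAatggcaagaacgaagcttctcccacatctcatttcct
These windows lie at chr13:23738557-23738806 (plus strand), chr13:23622559-23622808 (minus strand), chr13:21780626-21780875 (minus strand) and chr13:23571150-23571399 (plus strand). The H1 box was present in 5 of 6 H1 windows, the exception being H1f1, in 2 of 17 H2A, 2 of 15 H2B and none of the 10 H3 or 11 H4 windows, against 6.25% of all 32851 promoters of the table. The octamer, a known element of H2B promoters, was in 7 of 15 H2B and 6 of 17 H2A windows and in none of the H1, H3 and H4 windows, against 1.6% of all promoters. CCAAT was in all 6 H1, 17 H2A and 15 H2B windows, in 8 of 10 H3 and in 3 of 11 H4 windows, against 33.8% of all. TATAAA was in 4 of 6 H1, 7 of 17 H2A, 7 of 15 H2B, 4 of 10 H3 and 6 of 11 H4 windows, against 12.4% of all promoters. The matches describe letters, not bound sites.

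Library totals ran from 31233688 to 89774511 counts, and the histone members took 0.0132% to 0.0695% of them. Replicate libraries at P0 were unlike each other in markers of other cell types. Summed over 10 erythroid genes, the P0 libraries numbered 1 held 670 CPM (read counts scaled to a common library size with TMM factors) in WT and 280 CPM in ME, against 5440 to 17969 CPM in the other 6 P0 libraries. The sum of 9 neutrophil genes was 894 and 844 CPM in the same 2 libraries and 11403 to 38624 CPM in the others. P0 WT library 1 had the highest sum of 7 mast cell and basophil genes, 6094 CPM. Of 10 LSK markers, summing to 2391 to 5770 CPM over the 24 libraries, all 10 were tested, Kit and Ly6a among them, and the sum was highest in the P28 libraries outside the RLT Vav Txp group and in the P0 libraries numbered 1.

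Among the tested members, level per length of transcript was dominated by few genes. CPM per kilobase of exon, averaged over the 24 libraries, were highest for Hist1h2ao (35.7), H1f2 (34.4), H1f5 (32.6), H4c4 (27.7), H2bc4 (25.2) and H1f4 (21.6). H1f2, H1f4 and H1f5 code for somatic linker histones, which bind the DNA between nucleosomes, and H4c4 and H2bc4 for core histones. The H3 genes were low, with H3c4 the highest at 2.75. Family medians per kilobase were 21.6 for H1, 2.26 for H2A, 1.47 for H2B, 1.41 for H3 and 1.40 for H4. As shares of the summed CPM, H1 genes held 44.2%, H2B 19.5%, H2A 17.3%, H4 15.5% and H3 3.48%, and H1f2 alone held 17.8%.

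Annotated transcript ends differed among the tested members. The annotation ran more than 100 bases past the stem-loop in 18 of them, ended near it in 21, covered only the coding part in 11 and held no stem-loop in 5. Median level per kilobase was 1.95 for the extended transcripts, 1.61 for those ending at the stem-loop, 1.28 for coding-only models and 4.88 for those without a stem-loop. The ranges of the 4 classes overlapped from 0.374 to 25.2.

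**Figure D1:**
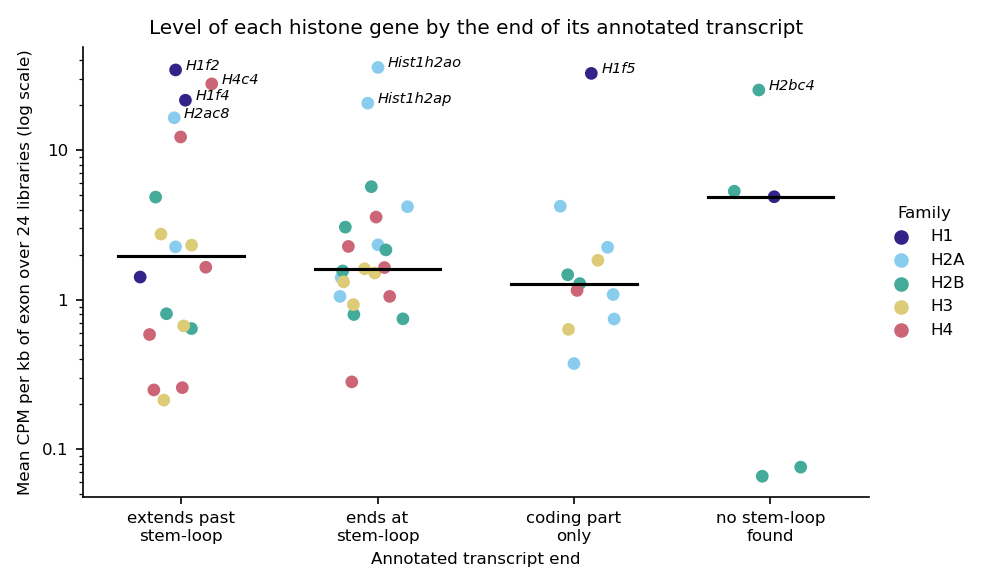
Mean CPM per kilobase of exon over the 24 libraries (log scale) for each of the 55 tested histone genes, grouped by how its annotated transcript ends and coloured by family. Bars are class medians. H1f2, H1f4 and H1f5 and a few H2A, H2B and H4 genes are the highest points, H1f3 lies below the median of its class at 1.42, and the H3 genes stay at or below 2.75.

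Several members cannot be separated by their reads. The 5 members at 0 counts in every library, H2ac18, H2ac19, H3c13, H3c14 and H2bc18, shared every 50-base stretch with another annotated transcript. Hist1h2ao and Hist1h2ap had 6.50% and 6.93% of such stretches to themselves, so their levels are uncertain, whereas H1f5 and H2bc21 had 100% and H1f2 91.5%. H2bc6 overlaps H1f4 on the same strand, which makes both uncertain, and 83.7% and 68.0% of their stretches were unique. The genes the comparisons return to most lie on GRCm38 chromosome 13: H1f2 (Hist1h1c) at chr13:23738808-23740367 on the plus strand, H1f4 (Hist1h1e) at chr13:23620629-23622558 on the minus strand and H1f5 (Hist1h1b) at chr13:21779883-21780625 on the minus strand. H2ac6 (Hist1h2ac) lies at chr13:23681467-23683948 on the minus strand, H3c4 (Hist1h3d) at chr13:23575763-23577011 on the plus strand and H2bc6 (Hist1h2be) at chr13:23583670-23621124 on the minus strand. The annotated H2ac6 transcript runs 2010 bases past its stem-loop, H1f4 1153 bases, H1f2 840 bases and H3c4 752 bases, while H1f5 is annotated as its coding part only. How multiply matching reads were counted, and on which strand, is not given in the sources used here. H1f6, the testis linker histone, reached at most 28 counts and H2ac1 at most 10, and neither passed the filter. H2ac21 reached 2 counts and H2bc1 reached 9.

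Summed over the 55 genes, histone level was highest at P0 and lowest in the P0-induced ME cells. P0 WT libraries 1 to 4 stood at 396, 616, 470 and 848 CPM, and P0 ME libraries at 216, 533, 335 and 623 CPM. P28 WT stood at 298, 347, 244 and 183 CPM. In bulk samples fewer cells of a type and less RNA per cell cannot be told apart.
The E10.5-induced ME libraries at P28 held 209, 195, 156 and 140 CPM, the P0-induced ME libraries 143, 127, 149 and 127 CPM, and the RLT Vav Txp libraries 174, 229, 207 and 288 CPM. All 4 P0-induced libraries lay below all 4 P28 WT libraries, and E10.5-induced libraries 1 and 2 lay above the lowest WT library, at 183 CPM, but below the other 3. The mean was 2.17-fold higher in P0 WT than in P28 WT and 2.44-fold higher in P0 ME than in E10.5-induced ME at P28. P28 WT was 1.53-fold above E10.5-induced ME and 1.97-fold above P0-induced ME. By family, the H3 genes summed to 12.7 ± 6.97 CPM in P28 WT, 3.54 ± 1.22 CPM in E10.5-induced and 3.84 ± 0.945 CPM in P0-induced ME (SD, n = 4). The H1 genes summed to 103.4 ± 23.1, 54.2 ± 5.49 and 45.4 ± 6.83 CPM in the same groups, where for both families no ME library reached the WT range. No test was made of these sums, which the single-gene tests below cover.

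**Figure D2:**
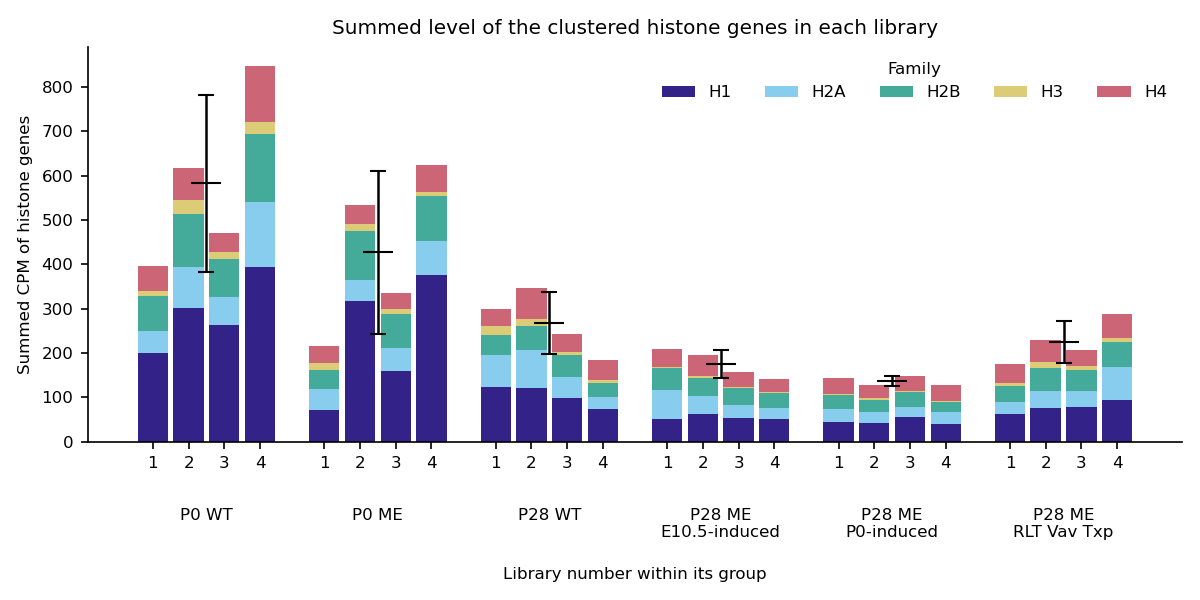
Summed CPM of the 55 tested histone genes in each of the 24 libraries, stacked by family, with the group mean and SD (n = 4) as a black cross-bar and whiskers. The P0 libraries reach 848 CPM, P28 WT lies between 183 and 347 CPM, and the 4 P0-induced ME libraries lie between 127 and 149 CPM.

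In the plot of each gene relative to its own mean, all 4 P0 WT libraries and P0 ME libraries 2 and 4 were above the mean for all 5 H1 genes, and the 8 E10.5-induced and P0-induced ME libraries were below it for all 5. Many low-level H3 and H4 genes were far above their mean in 1 library of a group and far below it in another.

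**Figure D3:**
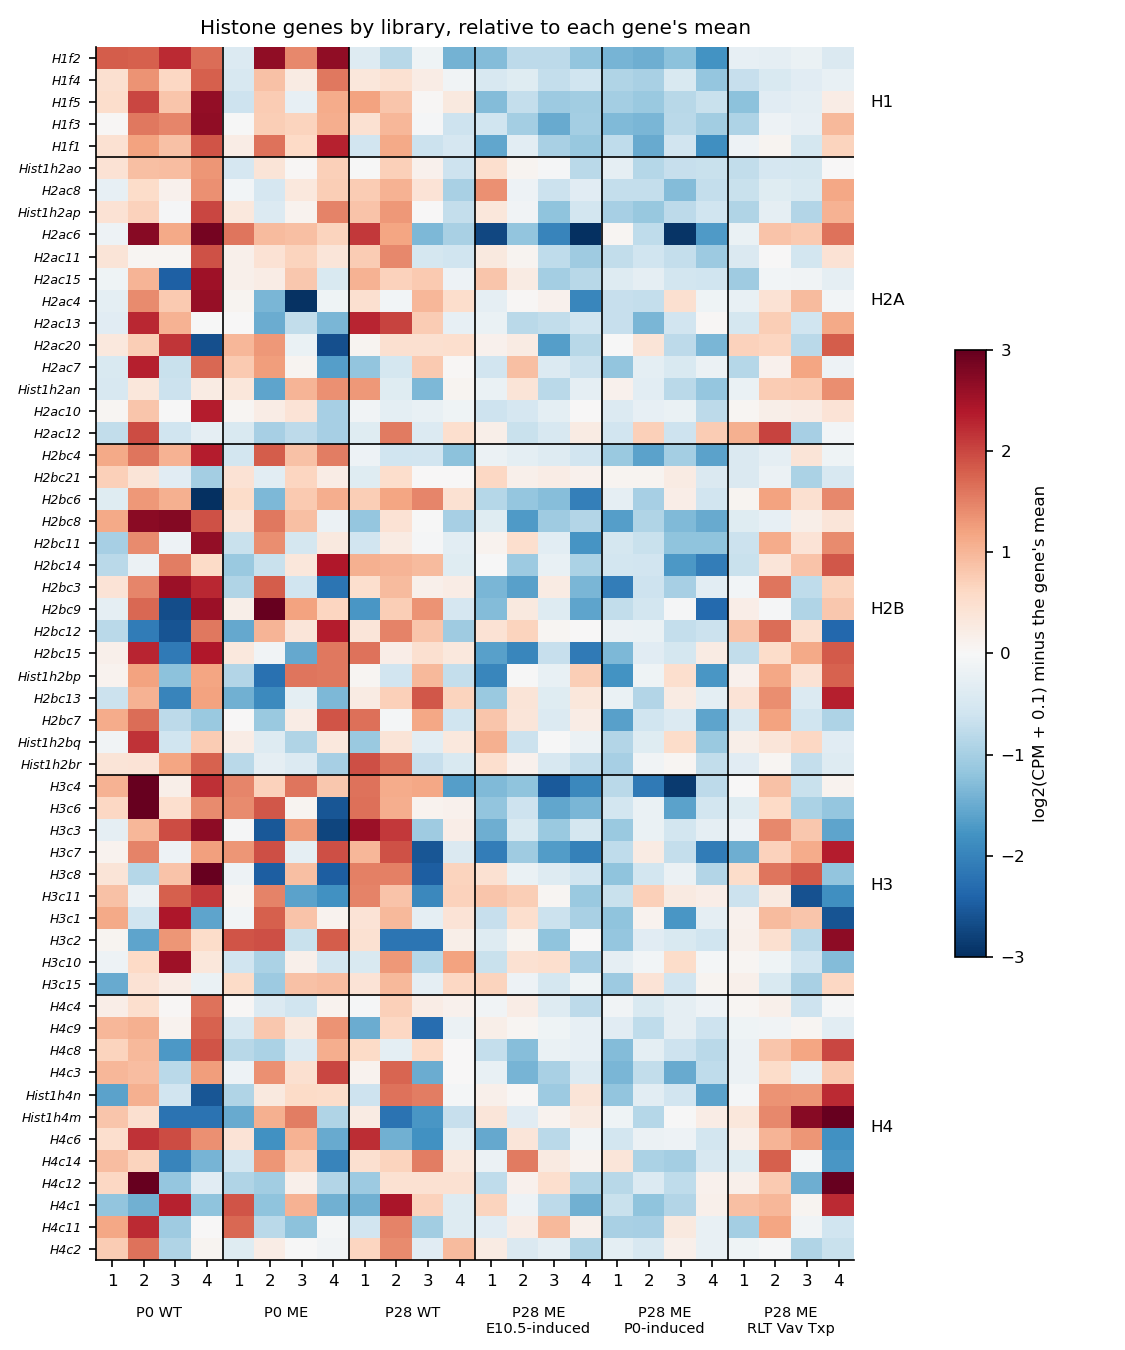
log2(CPM + 0.1) of each of the 55 tested histone genes in each library, minus the mean of that gene over the 24 libraries, with families separated by lines and genes ordered by mean level. Red is above and blue below the gene's mean, and the H1 block is red in most P0 libraries and blue in the 8 E10.5-induced and P0-induced ME libraries at P28.

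Between P0 liver and P28 marrow in wild-type cells, 4 members fell and none rose. They were H1f2, H2bc4, H2bc8 and H4c9. Of all genes tested, 4.56% were called lower, a call being an adjusted p under 0.05 in the edgeR quasi-likelihood test, and the members' share was 4 of 55. In P0 WT, H1f2 stood at 113, 110, 151 and 102 CPM, and in P28 WT at 24.3, 17.8, 29.0 and 11.8 CPM. Every P0 WT library lay above every P28 WT library. The log2 fold change was -2.52 (SE 0.40 and adjusted p = 0.000344, edgeR). H2bc4, an H2B gene, stood at 47.1, 65.1, 44.6 and 111 CPM at P0 and at 19.2, 14.1, 14.5 and 9.03 CPM at P28. These groups did not overlap either, and the log2 fold change was -2.24 (SE 0.36 and adjusted p = 0.000344, edgeR). H2bc8 fell from 4.31 to 13.4 CPM at P0 to 0.783 to 2.59 CPM at P28, with a log2 fold change of -2.63 (SE 0.52 and adjusted p = 0.0024, edgeR).
H4c9, with 8.05 to 25.9 CPM at P0 and 1.47 to 11.6 CPM at P28, had overlapping groups and a log2 fold change of -1.54 (SE 0.46 and adjusted p = 0.0383, edgeR). The other abundant linker histones were lower at P28 without passing the test. H1f4 had a log2 fold change of -0.91 (SE 0.31 and adjusted p = 0.0711, edgeR) and H1f5 of -1.09 (SE 0.40 and adjusted p = 0.0971, edgeR). A total of 5 members had P28 values all below the P0 values, against 4.38% of all genes. A negative fold change was found in 42 of the 55, against 54.5% of all genes. The median log2 fold change was -0.76 over the members and -0.07 over all genes tested. Without P0 WT library 1 the edgeR test called 7 members, and without both P0 libraries numbered 1 it called 8. Erythroid, neutrophil and macrophage sums were 670 to 17969, 894 to 18603 and 139 to 1544 CPM in P0 WT and 482 to 654, 694 to 918 and 83.2 to 117 CPM in P28 WT. Their part in these differences was not tested. P0 WT library 1, low in all 3 sums, had 113 CPM of H1f2, where the others of its group had 102 to 151 CPM. P0 ME library 1, also low in all 3 sums, had 23.8 CPM, where the others of its group had 87.2 to 202 CPM.

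With MLL-ENL induced at E10.5, 12 members fell from P0 to P28 and none rose, against 8.45% of all genes called lower. All 5 tested H1 genes were among them, with H2bc4, H2bc6, H2bc8, H2ac6, H3c4, H3c6 and H3c7. H1f2 stood at 23.8, 202, 87.2 and 202 CPM in P0 ME and at 12.9, 18.5, 18.6 and 14.0 CPM in E10.5-induced ME at P28, and P0 ME library 1 was far below the other 3 but above all P28 libraries. Its log2 fold change was -3.01 (SE 0.41 and adjusted p = 3.38e-05, edgeR).
H2ac6, an H2A gene with a long annotated transcript end, stood at 9.48, 5.94, 5.74 and 4.91 CPM at P0 and at 0.374, 1.28, 0.700 and 0.183 CPM at P28. The groups did not overlap, and the log2 fold change was -3.34 (SE 0.81 and adjusted p = 0.00553, edgeR). H3c4, the highest H3 gene, stood at 5.75, 3.33, 6.37 and 3.63 CPM at P0 and at 0.747, 0.817, 0.271 and 0.458 CPM at P28, with a log2 fold change of -3.05 (SE 0.70 and adjusted p = 0.00372, edgeR). H1f1, a linker histone gene with no H1 box match in its window, had a log2 fold change of -2.43 (SE 0.55 and adjusted p = 0.00333, edgeR).
The remaining calls ran from -1.29 for H1f4 to -4.04 for H3c7 on the log2 scale, and H3c7 and H3c6 were low genes, at most 2.20 and 4.69 CPM in P0 ME. No H4 gene was called. Of the 12, 9 have annotated transcripts that extend past the stem-loop, a class in which 9 of 18 tested members were called, against none of the 21 that end at it. The 2 classes also differ in level and length, and no test was made of this difference. A total of 9 members had P28 values all below the P0 values, against 11% of all genes. The members' median log2 fold change was -0.68, against -0.18 over all genes, and -0.36 when GC content and transcript length were offset, a fit that called 9 members. Leaving out P0 ME library 4 took away the edgeR calls of H1f4 (adjusted p = 0.0508) and H1f5, which also lost its call without P28 library 1 (adjusted p up to 0.0786), and H2bc6 and H3c6 lost theirs in 7 and 6 of the 8 fits without 1 library, with adjusted p up to 0.133 and 0.181. H3c7 lost its edgeR call in 5 of the 8, without P0 ME library 2 or 4 or P28 library 1, 3 or 4 (adjusted p up to 0.0768). H2bc8 lost its edgeR call without P0 ME library 2 or P28 library 2 (adjusted p up to 0.0774) and under GC and length offsets (adjusted p = 0.0541). Erythroid and neutrophil sums were 280 to 14123 and 844 to 38624 CPM in P0 ME and 405 to 784 and 996 to 1778 CPM at P28, and their part was not tested.

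At P0, no member was called between ME and WT cells by edgeR, against 0.642% of all genes, and 10 had an unadjusted p under 0.05, all lower in ME. Most members were lower in ME, 38 of 55, against 50.8% of all genes. The median log2 fold change was -0.78 against -0.01 over all genes. H1f5 stood at 25.9, 71.7, 31.9 and 112 CPM in WT and at 11.7, 30.2, 15.1 and 38.9 CPM in ME. The groups overlapped, and the log2 fold change was -1.33 (SE 0.40 and adjusted p = 0.125, edgeR).
DESeq2 called 3 members lower, H1f5, H2ac4 and H2bc8, and edgeR called H1f5 and H4c4 lower when P0 WT library 1 was left out. Under GC and length offsets the median was -0.42. H2ac12 had at most 3 counts in each P0 ME library, and the median was the same with it set at that limit. Markers of other cell types also differed in direction: all 7 mast cell and basophil genes had a negative fold change (sum 682 to 6094 CPM in WT and 245 to 739 CPM in ME), as had 9 of 10 erythroid genes (670 to 17969 and 280 to 14123 CPM), and all 9 neutrophil genes had a positive one (894 to 18603 and 844 to 38624 CPM). None of these genes was called by edgeR, and their part in the histone values was not tested.

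At P28, E10.5-induced ME cells had lower levels of 5 members than WT cells and higher levels of none. The 5 were the linker histone genes H1f5 and H1f3, the H3 gene H3c4, the H2A gene H2ac6 and the H2B gene H2bc6. Of all genes, 4.44% were called lower, and the members' share was 5 of 55, a difference that was not tested. H1f5 stood at 41.2, 32.1, 18.3 and 21.8 CPM in WT and at 7.24, 10.8, 8.41 and 8.62 CPM in ME. Every ME library was below every WT library, and the log2 fold change was -1.69 (SE 0.41 and adjusted p = 0.00909, edgeR). H3c4 stood at 6.49, 4.50, 4.62 and 0.572 CPM in WT and at 0.747, 0.817, 0.271 and 0.458 CPM in ME. The low WT library 4 overlapped the ME libraries, and the log2 fold change was -2.81 (SE 0.70 and adjusted p = 0.0107, edgeR).
H2ac6 was split within WT, at 13.7 and 7.09 CPM in libraries 1 and 2 and 1.14 and 1.5 CPM in libraries 3 and 4, against 0.374, 1.28, 0.700 and 0.183 CPM in ME, so that ME library 2 lay above WT library 3. Its log2 fold change was -3.18 (SE 0.81 and adjusted p = 0.0121, edgeR), and it lost the call without WT library 1 (adjusted p = 0.0727). H2bc6 stood at 4.61, 6.22, 7.62 and 3.73 CPM in WT and at 1.45, 1.16, 1.06 and 0.572 CPM in ME, with no overlap and a log2 fold change of -2.38 (SE 0.67 and adjusted p = 0.0208, edgeR).
H1f3 had 5.03 to 15.5 CPM in WT and 2.64 to 5.08 CPM in ME, and a log2 fold change of -1.34 (SE 0.44 and adjusted p = 0.0474, edgeR). H1f2, the most abundant member by counts, had a log2 fold change of -0.37 (SE 0.38 and adjusted p = 0.576, edgeR), and H1f4 of -0.79 (SE 0.31 and adjusted p = 0.0931, edgeR). The members as a list lay lower: 47 of 55 had a negative fold change, against 54.5% of all genes. The median was -0.85 against -0.10 over all genes. Members share depth, scaling and reads, so these 47 are not independent. By family the median was -1.04 for H1, -0.82 for H2A, -0.69 for H2B, -1.04 for H3 and -0.71 for H4. A total of 5 members had ME values all below WT, against 11.6% of all genes.
GC and length offsets brought the median to -0.28 and left 4 calls, without H1f3, while a fit of only these groups called 12. H1f5 and H3c4 kept the edgeR call in all 8 fits without 1 library, whereas H2bc6 lost it without WT library 2 or 3 or ME library 2, 3 or 4 (adjusted p up to 0.0646), and H1f3 in each fit except that without WT library 4 (up to 0.181). The count fell to 3 without WT library 1 or 2 or ME library 2, 3 or 4. Reads on small structured RNA classes were 0.00162% to 0.00389% of counts in these ME libraries and 0.00622% to 0.00761% in P28 WT, and reads on mitochondrial genes 0.371% to 0.520% and 1.32% to 2.15%. Macrophage sums were 50.9 to 80.1 CPM in ME and 83.2 to 117 CPM in WT, neutrophil sums 996 to 1778 and 694 to 918 CPM, and mast cell sums 252 to 340 and 145 to 189 CPM, with no overlap in any of the 3. By gene, the mast cell list was split, with 3 higher and 4 lower in ME and a median log2 fold change of -0.42. The neutrophil list had 5 genes higher and 4 lower, and the macrophage list 1 higher and 9 lower. Their part in the histone difference was not tested.

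Cells with MLL-ENL induced at P0 had lower histone levels across nearly the whole list at P28, although 1 gene passed the test. H1f5 stood at 8.82, 8.22, 9.99 and 11.2 CPM, below all 4 WT libraries (18.3 to 41.2 CPM), with a log2 fold change of -1.57 (SE 0.40 and adjusted p = 0.0484, edgeR). Of all genes, 1.08% were called lower. A total of 54 of the 55 members had a negative fold change, against 54.4% of all genes, and the median was -1.27 against -0.09. Members share depth, scaling and reads, so these 54 are not independent.
H1f4 stood at 18.7, 17.9, 25.7 and 15.8 CPM in ME and at 44.8, 48.7, 41.3 and 32.7 CPM in WT, with no overlap and a log2 fold change of -1.10 (SE 0.31 and adjusted p = 0.0589, edgeR). H3c4 stood at 1.10, 0.385, 0.188 and 1.12 CPM and had a log2 fold change of -2.53 (SE 0.69 and adjusted p = 0.0547, edgeR), overlapping WT library 4. H2ac6 (-1.94), H2bc6 (-1.40), H2ac8 (-1.33), Hist1h2ap (-1.45) and H1f2 (-0.84) were lower on the log2 scale with edgeR adjusted p from 0.118 to 0.223.
The family medians were -1.21 for H1, -0.89 for H2A, -1.29 for H2B, -1.44 for H3 and -1.18 for H4. A total of 9 members had ME values all below WT, H1f5, H1f4, H1f3, H3c6, H4c4, H2bc3, H2bc6, H2bc14 and H2ac15, against 10.4% of all genes. By edgeR, 20 members had an unadjusted p under 0.05, and all 20 were lower. The share of all genes at that threshold was not counted.
The count of calls depended on the fit: RLE factors, plain totals and the stricter filter each called 3 members, DESeq2 called 9, limma voom with quality weights 10 and a fit of only these groups 16, all lower. It was 0 with no filter on low counts, and 0 under GC and length offsets, which gave a median of -0.65. The H1f5 call was lost without WT library 1, 2 or 3 or any ME library (adjusted p up to 0.178), and 4 members were called without WT library 4. Small structured RNA classes took 0.00286% to 0.00368% and mitochondrial genes 0.5% to 0.623% of counts in these ME libraries, below the P28 WT ranges given above. Over 10 erythroid genes the sum was 191 to 252 CPM against 482 to 654 CPM in WT, over 10 macrophage genes 50.4 to 63.9 CPM against 83.2 to 117 CPM, and over 7 mast cell genes 224 to 275 CPM against 145 to 189 CPM, again without overlap. By gene, 3 erythroid genes were higher in ME and 7 lower, 1 macrophage gene higher and 9 lower, and 6 mast cell genes higher and 1 lower. The part of these in the histone values was not tested.

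**Figure D4:**
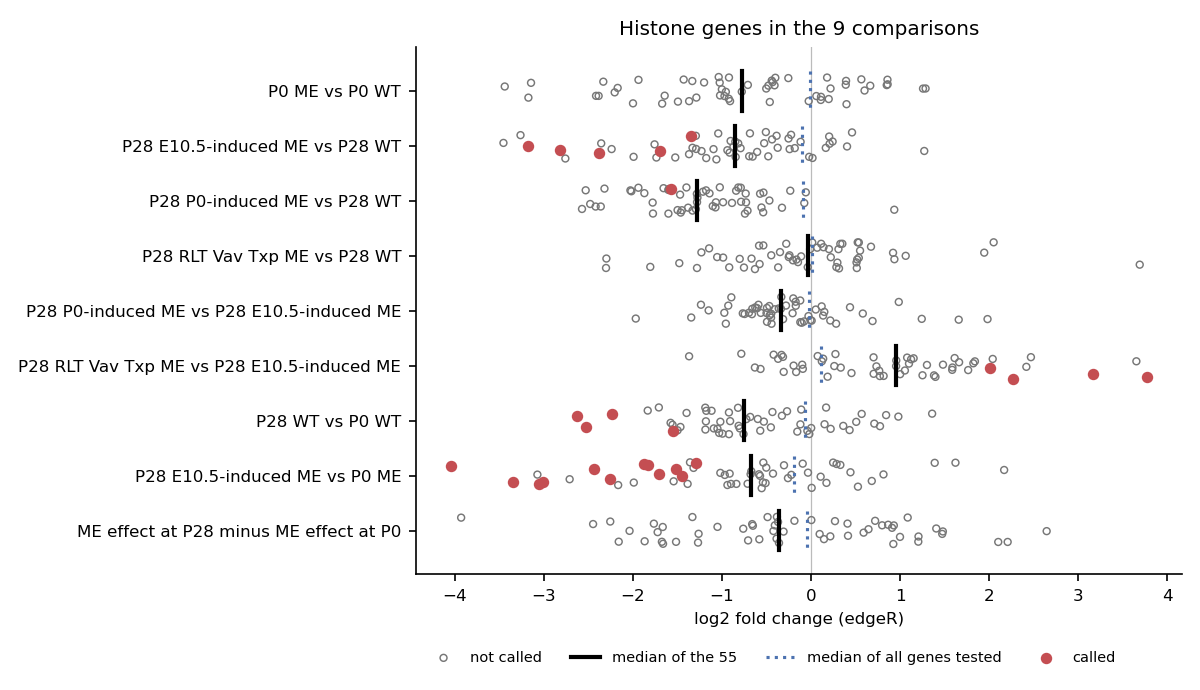
log2 fold change (edgeR) of each of the 55 tested histone genes in the 9 comparisons, with called genes filled, the median of the 55 as a black bar and the median of all 23059 genes tested as a dotted line. The black bar lies right of the dotted line for RLT Vav Txp against E10.5-induced ME and left of it in the other comparisons, where the gap is smallest for RLT Vav Txp against WT (-0.04 against 0.01).

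Between P0-induced and E10.5-induced ME cells at P28 no member was called by edgeR, where 0.0477% of all genes were, and 2 members had an unadjusted p under 0.05. The median was -0.34, and 41 of 55 members were lower in P0-induced cells, against 52.9% of all genes. H2ac8, an H2A gene, stood at 6.07, 6.10, 4.00 and 6.12 CPM after induction at P0 and at 26.1, 9.04, 6.36 and 7.89 CPM after induction at E10.5. The groups did not overlap, and the log2 fold change of -1.15 (SE 0.48) had an edgeR adjusted p of 1. limma voom with quality weights called 3 members lower and a fit of only these groups 1, and DESeq2 called 0.

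In the RLT Vav Txp group 4 members were higher than in E10.5-induced ME cells and none was lower. In that comparison 8.5% of all genes were called higher, so 4 of 55 is near that background. The 4 members were H2ac6, H2bc6, H3c4 and H3c7. Each has an annotated transcript that extends past the stem-loop, as do 18 of the 55 tested members, and no test was made of this. H2ac6 stood at 2.63, 5.58, 5.34 and 9.65 CPM, above every E10.5-induced library (0.183 to 1.28 CPM), with a log2 fold change of 3.17 (SE 0.80 and adjusted p = 0.00869, edgeR). H2bc6 stood at 2.89, 6.35, 3.83 and 7.5 CPM, above 0.572 to 1.45 CPM, with a log2 fold change of 2.27 (SE 0.67 and adjusted p = 0.02, edgeR).
H3c4 stood at 2.03, 3.81, 1.23 and 2.19 CPM, above 0.271 to 0.817 CPM, with a log2 fold change of 2.01 (SE 0.68 and adjusted p = 0.04, edgeR). H3c7, a low H3 gene, stood at 0.117, 0.868, 1.18 and 2.93 CPM against 0.0415 to 0.185 CPM, and its groups overlapped (log2 fold change 3.77, SE 1.22 and adjusted p = 0.0331, edgeR). The median over the members was 0.96, against 0.12 over all genes, and 42 of 55 were higher. The other 13 were lower, against 45.2% of all genes. A total of 6 members had all RLT Vav Txp values above the others, against 11.6% of all genes.
H2ac6 kept its edgeR call without any 1 library. The count fell to 1 or 2 without any E10.5-induced library or without RLT Vav Txp library 2 or 4, and rose to 7 without library 1. The median was 0.42 under GC and length offsets, and 2 members were called higher and 1 lower. The sum of 10 macrophage genes, none at 0 in a whole group, was 761 to 3250 CPM in the RLT Vav Txp libraries against 50.9 to 80.1 CPM, the erythroid sum 1184 to 2448 CPM against 405 to 784 CPM, and the LSK marker sum 2413 to 3397 CPM against 4883 to 5675 CPM. Small structured RNA classes took 0.00219% of counts in library 1 and 0.00627% to 0.00746% in libraries 2 to 4. The part of these in the histone difference was not tested.

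Against P28 WT the RLT Vav Txp cells had no member called by edgeR, where 4.12% of all genes were, and 3 members had an unadjusted p under 0.05. The median was -0.04, with 29 of 55 members lower, against 49.2% of all genes. H1f2 stood at 26.8, 26.3, 27.7 and 23.5 CPM, within the WT range of 11.8 to 29.0 CPM, and its log2 fold change was 0.33 (SE 0.38 and adjusted p = 0.793, edgeR). H1f5 stood at 7.55, 14.0, 14.8 and 20.8 CPM, with a log2 fold change of -0.98 (SE 0.40 and adjusted p = 0.202, edgeR). DESeq2 and limma voom with quality weights called Hist1h4m higher, the GC and length offsets gave H1f5 as lower, and a fit of only these groups gave H1f4 as lower. The sum of 10 macrophage genes was 761 to 3250 CPM against 83.2 to 117 CPM in WT, with all 10 higher. The LSK marker sum was 2413 to 3397 CPM against 4641 to 5285 CPM, with 4 of 10 genes higher and 6 lower. Over 10 erythroid genes the sum was 1184 to 2448 CPM against 482 to 654 CPM, with 9 higher and 1 lower. The part of these in the histone values was not tested.

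The change in the ME effect between P0 and P28 was tested directly as a difference of differences. No member passed by edgeR, DESeq2 or limma voom, where 0.72% of all genes did by edgeR, and 3 had an unadjusted p under 0.05, all lower. A difference in the ME effect between the 2 ages was thus not shown for any member.

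The genes that serve histone supply and the cell cycle were described from lists. In E10.5-induced ME cells at P28, 13 of 26 S phase genes and 12 of 15 G2 and mitosis genes rose against WT and none fell, with median log2 fold changes of 0.83 and 0.89 against -0.10 over all genes. In that comparison 1804 of all 23059 genes tested were called higher. Among 17 genes of histone mRNA transcription, processing and decay, 10 rose and none fell (median 0.69), and of 14 histone chaperones 6 rose and none fell (median 0.52). Slbp, whose product binds the stem-loop, stood at 183 to 229 CPM in WT and 262 to 327 CPM in ME, with no overlap and a log2 fold change of 0.53 (edgeR adjusted p = 0.0394). Npat, the activator of the clusters, stood at 39.0 to 52.3 CPM and 66.6 to 91.2 CPM, a log2 fold change of 0.79 (edgeR adjusted p = 0.015).
Srrt, which links the cap to RNA processing, rose by 0.92 and Cpsf2, of the histone cleavage complex, by 0.88 on the log2 scale (edgeR adjusted p = 0.00206 for each). Casp8ap2 (0.74), Lsm11 (0.54) and Lsm10 (-0.49), the last 2 subunits of the U7 particle that guides histone cleavage, did not pass, with edgeR adjusted p from 0.0912 to 0.416. Of the DNA replication genes, Mcm4 rose by 1.24 and Rrm1 by 1.18 (edgeR adjusted p = 0.00226 and 0.00213), while Pcna, the replication clamp, had 233 to 343 CPM in WT and 237 to 313 CPM in ME (log2 fold change -0.10, edgeR adjusted p = 0.797).
Of the mitotic genes Mki67 rose by 1.13, Plk1 by 1.25 and Kif11 by 1.35 (edgeR adjusted p = 0.0036, 0.0022 and 0.00226), and of the chaperones Ubn1 rose by 0.68 and Daxx by 0.76 (0.00592 and 0.00708). The counts ranged with the alternatives from 7 to 18 for S phase, 10 to 13 for mitosis, 5 to 12 for the mRNA machinery and 1 to 9 for chaperones, the lowest without WT library 1 or 2, and each median stayed above 0. In the same libraries the summed histone level was 140 to 209 CPM against 183 to 347 CPM in WT.

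**Figure D5:**
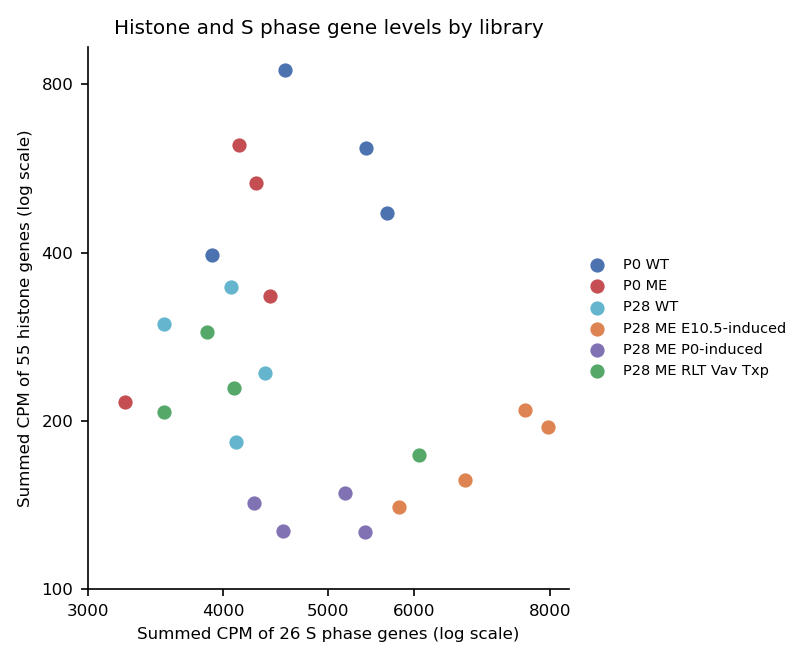
Summed CPM of the 55 histone genes against summed CPM of the 26 S phase genes in each library (both axes log scale), coloured by group. The 4 E10.5-induced ME libraries at P28 lie at the right, from 5809 to 7966 CPM of S phase genes with 140 to 209 CPM of histone genes, and P28 WT lies between 3524 and 4371 CPM with 183 to 347 CPM.

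In the plot of both sums by library, S phase sums were 3902 to 5658 CPM in P0 WT and 3246 to 4418 CPM in P0 ME, where histone sums were highest. P0-induced ME libraries had S phase sums of 4272 to 5402 CPM, and RLT Vav Txp library 1 stood at 6066 CPM against 3525 to 4094 CPM in the other 3 of its group. In P0-induced ME against WT, no S phase or mitosis gene was called, and Srrt (0.75, edgeR adjusted p = 0.0339) and Ubn1 (0.58, edgeR adjusted p = 0.0476) rose. These counts depended on the fit: over the alternatives 0 to 9 S phase genes were higher and 0 to 5 lower, 0 to 3 mitosis genes were higher and 0 to 2 lower, and 0 to 11 mRNA machinery genes and 0 to 5 chaperones were higher. With any 1 library left out no chaperone was called, and no machinery gene except without WT library 4. Among all 23059 genes tested, 114 were called higher and 248 lower in the main fit of this comparison.
In RLT Vav Txp against E10.5-induced ME, 13 S phase, 11 mitosis and 7 mRNA machinery genes fell and none rose, and 7 chaperones fell and 1 rose, with the S phase count at 6 without RLT Vav Txp library 4, 7 without library 3 and 8 without E10.5-induced library 2. The mitosis count was 6 without RLT Vav Txp library 3, and the machinery count was 1 or 2 in every fit without 1 library except those without E10.5-induced library 4 or RLT Vav Txp library 1. The count of chaperones that fell ranged from 2 to 8 over the alternatives. Among all 23059 genes tested, 2163 were called lower and 1959 higher in RLT Vav Txp against E10.5-induced ME. Between P28 and P0 in WT, 2 S phase genes (E2f2 and Ccne1) and 4 mitosis genes fell and none rose, where 4.56% of all genes were called lower. Over the alternatives 1 to 8 S phase and 1 to 5 mitosis genes fell, with 7 S phase genes without P0 WT library 1, 1 without P28 WT library 1, and 2 mitosis genes without P28 WT library 4. In E10.5-induced ME 13 S phase, 8 mitosis and 8 mRNA machinery genes rose from P0 to P28 while the 12 histone genes fell. There, 2257 of all 23059 genes tested were called higher. Without both P0 libraries numbered 1, the S phase count in ME was 12 higher and 2 lower.

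Replication-independent histone variants, which can be made outside S phase and mostly from polyadenylated mRNAs, summed to 5114 to 11909 CPM over 11 genes. None of the 11 was called between E10.5-induced or P0-induced ME and WT at P28. H3f3b, which codes for H3.3, stood at 1272 to 1637 CPM in P28 WT and 1286 to 1535 CPM in E10.5-induced ME, and H2az1, for H2A.Z, at 798 to 1079 CPM and 651 to 867 CPM. Between P28 and P0, H3f3b fell by 0.64 in WT and by 0.68 in ME on the log2 scale (edgeR adjusted p = 0.0271 and 0.01). H2az1 was called only in RLT Vav Txp against E10.5-induced ME, with a log2 fold change of 0.60 (edgeR adjusted p = 0.0394), of the 9 comparisons. In WT, Cenpa, the centromere H3 variant, and H1f0, the replacement linker histone, fell from P0 to P28 by 1.19 and 1.03 (edgeR adjusted p = 0.000735 and 0.000917).

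The 5 genes outside the list whose log2 CPM followed the summed histone level most closely over the 24 libraries were Nme6 (Pearson r 0.949), Mgst3 (0.946), Cenpa (0.939), Ghitm (0.938) and Cops4 (0.935). The libraries of the 6 groups share the difference between P0 and P28, and the 5 were the highest of all genes tested, so the r values are descriptions.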

How the data were processed

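Per the labels' protocols, RNA was extracted with RNeasy Plus and libraries were made with SMARTer chemistry. The values are raw read counts per gene, deposited by the authors as 1 table. The submitters' processing notes name STAR 2.7.9a, Subread, featureCounts 2.0.3 and GRCm38; strand setting, treatment of reads matching several places and annotation release are not given in the sources used here. Of 55774 entries, 287 repeats of 168 IDs, with identical counts, were dropped.

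Genes passing edgeR's filterByExpr (minimum 10 counts), 23059, were scaled with TMM factors and fitted over all 24 libraries with a group term by edgeR 4.0.16 (R 4.3.3), with the robust quasi-likelihood test and Benjamini-Hochberg adjustment over all genes. A call is an adjusted p under 0.05. Counts at an unadjusted p under 0.05 and counts of calls under the alternatives are given for members and lists only. They stand without the share over all genes and are descriptions. The fitting code was tested on simulated data. Depths ran from 31233688 to 89774511 counts. For each gene, p-values rest on 1 spread between libraries of the same group, estimated over all 6 groups together (18 residual degrees of freedom). The spread of the unlike P0 libraries thus also enters the tests at P28, except in fits of only the groups compared. Alternatives used DESeq2 1.42.0, limma 3.58.1 voom, other scalings and filters, GC and length offsets, only the groups compared, a replicate block and each library left out.

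The members, lists, named genes and tests were chosen with earlier results of these data known. Named were the 3 most abundant members per family, the 4 largest called rises and falls per comparison among members whose log2 CPM averaged 0 or more, fixed list genes with up to 2 called genes per list and comparison, and the 5 genes most like the summed level. H3c7 and genes called under alternatives were named after their values were seen. The comparisons share control libraries and are not independent.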

Additional observations from a re-analysis of the deposited data

Results flagged for a closer look

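In groups of 4, some libraries stood apart from the other 3 by a gap test, for 8 of 156 groups tested, which is about the 1 in 20 that chance gives. Summed H1 was 62.35 CPM in E10.5-induced ME library 2, against 50.9 to 52.3 CPM in the others, and summed H2A was 75.77 CPM in P0 ME library 4, against 46.8 to 50.6 CPM. H1f1 was 5.916 CPM in P28 WT library 2, against 1.65 to 1.84 CPM. H2ac8 stood apart in 3 groups, at 26.15 CPM in E10.5-induced library 1 (others 6.36 to 9.04 CPM), at 22.65 CPM in RLT Vav Txp library 4 (others 6.31 to 7.84 CPM) and, low, at 4.002 CPM in P0-induced library 3 (others 6.07 to 6.12 CPM). H3c6 was 11.57 CPM in P0 WT library 2, against 1.78 to 3.42 CPM, and H4c8 was 2.863 CPM in P0 ME library 4, against 0.625 to 0.957 CPM.

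While no histone gene passed the test of the difference between the ME effect at P28 and that at P0, 13 genes of the supply and cell cycle lists did, all with a larger value at P28: 8 S phase, 3 mitosis, 1 mRNA machinery and 1 chaperone gene. Over the alternatives they ranged from 0 to 12, 0 to 10, 0 to 9 and 0 to 5, and all were 0 without E10.5-induced ME library 1 or 2. The S phase count was 8 to 11 without P0 WT library 1 or 4, P0 ME library 3 or E10.5-induced ME library 4, and 0 to 4 without any other 1 library. By edgeR the log2 difference was 0.77 for Rbbp7 (adjusted p = 0.0426), a histone-binding chaperone, 1.29 for Bub1 (adjusted p = 0.0407) and 0.95 for Ccnb2 (adjusted p = 0.025), both mitotic, and 1.18 for Srrt (adjusted p = 0.0224), of RNA processing. The S phase genes Mcm4 and Pola1 differed by 1.51 and 1.83 (edgeR adjusted p = 0.0302 and 0.017). Among all 23059 genes tested, 108 were called higher and 58 lower in this test.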

How the results depend on the processing

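No called member changed direction under any alternative run. The replicate block gave 0, 6, 1, 0, 4 and 10 calls for P0 ME against WT, E10.5-induced against WT, P0-induced against WT, P0-induced against E10.5-induced, WT over age and ME over age. Against the main fit of all 24 libraries, the block changed no count of calls by over 1.5 times. Same-numbered libraries deviated together in 2 of 4 pairs at P0 (Pearson r 0.324 for number 1 and 0.133 for number 4) and in 0 of 4 in the other comparisons. Whether the numbers pair the libraries at P0 is not settled by these values. The 4 RLT Vav Txp libraries carry no numbers in the labels. The same 20 numbered libraries without the block gave 2 calls for P0-induced ME against WT, where the block gave 1. DESeq2 called 3 members for P0 ME against WT, 11 for E10.5-induced and 9 for P0-induced ME against WT, 1 for RLT Vav Txp against WT and 7 for it against E10.5-induced ME. limma voom called 10, 10, 1, 9 and 3 in E10.5-induced, P0-induced and RLT Vav Txp against WT, RLT Vav Txp against E10.5-induced and P0-induced against E10.5-induced ME. Fits of only the groups compared called 12, 16, 1, 10 and 1 in the same order. For P0-induced ME against WT, RLE factors, plain totals and the stricter filter each called 3, and no filter and GC and length offsets each 0. Those offsets called 1 for RLT Vav Txp against WT and 7 for WT over age, where leaving out both P0 libraries numbered 1, an alternative chosen after seeing the data, called 8. Leaving out 1 library at a time gave 0 to 2 calls for P0 ME against WT, 3 to 6 for E10.5-induced and 0 to 4 for P0-induced ME against WT, 1 to 7 for RLT Vav Txp against E10.5-induced ME, 3 to 7 for WT over age and 8 to 11 for ME over age. The median over members moved by over 1.5 times under GC and length offsets in the comparisons for which it is given above. For P0-induced against E10.5-induced ME it stayed between -0.38 and -0.23 over all alternatives, with -0.34 in the main fit. The cause of the moves was not tested. Depth limits some members: H4c12, H4c1, H4c11 and H4c2 reached 10 counts in 11, 11, 8 and 4 of the 24 libraries. Hist1h2bq, H2ac12 and Hist1h2br did so in 9, 7 and 5.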
